A study of Drosophila melanogaster with 6 samples.

Results

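The odorant receptor (Or) and ionotropic receptor (Ir) genes of Drosophila melanogaster were examined for the histone mark H3K27me3 in larval wing discs, and for their place among the genes listed as upregulated by the oncohistone H3K27M. The members were chosen by symbol from a RefSeq gene table of Release 6, the assembly that dm6 names: protein-coding genes called Or or Ir followed by a digit, plus Orco. This gave 120 genes, 60 of each family (Orco counted with the Or genes), among 13922 protein-coding genes on the 6 chromosome arms that carry peaks. The rule uses symbols only, though it was set with earlier results of these data known.

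The study profiled late larval wing imaginal discs, from which the fly's wing and thorax later form, by CUT&RUN, which releases chromatin next to an antibody-bound mark with a tethered nuclease. The genotypes compared were Act5C-GAL4, alphaTub84B-GAL80ts/UASt-H3 K27M and Act5C-GAL4, alphaTub84B-GAL80ts/UASt-H3 K27R, the control. Both therefore carry the Act5C driver, which is active in most cells, the temperature-sensitive repressor GAL80ts and a mutant H3 transgene, and neither is a disc without a transgene; whether the endogenous histone genes were altered is not stated in the labels. Animals were reared at 25 °C and moved to 32 °C at 44 h after egg laying, the transgenes were on for 72 h. Dissection took place between 116 and 119 h after egg laying, with 20 discs pooled per replicate. Each genotype had 2 H3K27me3 libraries and 1 IgG library, 6 libraries in all.

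The values below come from a pair of deposited lists. The peak list holds 1709 broad H3K27me3 peaks that the authors called in H3K27R discs, a single list for both control libraries, and gives each peak's enrichment as a fold over background and its significance as a −log10 q-value. The gene list holds 148 gene intervals that the authors list as upregulated with H3K27M, with no expression values. Neither list has a value per library, and library depth is unknown, so no test between samples could be made and no p-value is given. H3K27me3 in H3K27M discs was not analysed here. Intervals on shares are exact Clopper-Pearson 95% intervals over genes. They cover counting error only and treat genes as independent, which neighbours under 1 peak are not. Neither list can check the labelled tissue by expression. Of 6 wing disc identity genes (vg, nub, ap, sd, Dll and hth), 5 overlapped a peak, all but sd, and so did 4 of 4 muscle precursor, 3 of 4 tracheal, 1 of 4 haemocyte and 1 of 4 neuronal markers, and none of these genes was listed as upregulated. The part such cells play in the results was not tested.

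Or proteins are seven-transmembrane odorant-gated ion channels, unrelated to the G protein-coupled odorant receptors of vertebrates, and each works together with the co-receptor Orco. Ir proteins descend from ionotropic glutamate receptors; some serve smell, temperature and humidity sensing in the antenna with the co-receptors Ir8a, Ir25a or Ir76b, and many others are taste receptors. Each receptor is usually made in a small set of sensory neurons. Those of the adult antenna, palps and taste bristles form after the stage sampled here. Some receptors, among them 25 of the Or genes, are known from the larval olfactory organ, which is present at that stage. H3K27me3 is written by Polycomb repressive complex 2 and marks genes held silent in a lineage, most of all regulators of development.

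Most receptor genes of both families had no H3K27me3 peak in control discs. Peaks overlapped 6 of 60 Or genes (10%, 95% interval 3.76 to 20.5%) and 10 of 60 Ir genes (16.7%, 8.29 to 28.5%), by at least 1 bp of the gene span. Over all 13922 protein-coding genes the share was 7.22% (6.79 to 7.66%). The interval of each family held the share of the other. Receptor genes are short, with a median span of 1467 bp for Or and 1908 bp for Ir genes against 2163 bp for all protein-coding genes. Among protein-coding genes of 1000 to 3000 bp, 5.37% overlapped a peak (319 of 5939), while 6 of 55 Or genes (10.9%) and 10 of 49 Ir genes (20.4%) of that length did. The other 104 receptor genes, 54 Or and 50 Ir, had none.

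**Figure D1:**
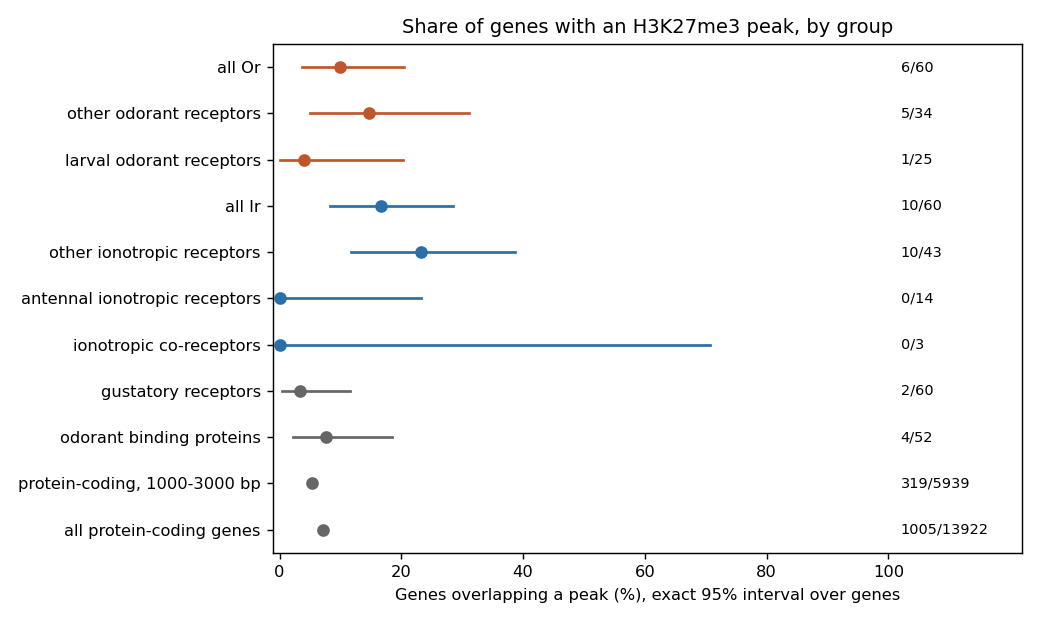
Share of genes that overlap an H3K27me3 peak in H3K27R discs (x axis, percent; points) with exact 95% intervals over genes (lines), for the 2 receptor families and their subgroups and for other gene groups (y axis); counts stand at the right. Among the groups plotted, the point for the other ionotropic receptors, 23.3%, lies highest, and no antennal Ir gene or ionotropic co-receptor has a peak.

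Among the Ir genes, those with a peak all fell outside the antennal and co-receptor classes. None of the 3 co-receptors Ir8a, Ir25a and Ir76b overlapped a peak, which allows up to 70.8% by the exact interval, and none of 14 antennal Ir genes did (up to 23.2%). Of the 43 other Ir genes, often called divergent and in many cases expressed in taste organs, 10 did (23.3%, 11.8 to 38.6%). The intervals of the antennal and the divergent class overlap, and their difference was not tested. Among the Or genes, Orco had no peak, 1 of 25 receptors known from the larval olfactory organ did (4.00%, 0.10 to 20.4%), and so did 5 of the 34 others (14.7%, 4.95 to 31.1%).

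The peaks over receptor genes ranged from a fragment inside a gene to blocks that held the whole gene. The 16 genes met 15 different peaks, of which 11 held no other protein-coding gene and 8 were under 2 kb wide. Their median fold enrichment was 2.41, equal to the 2.41 of the 1104 peaks over any protein-coding gene, and their median width was 1625 bp against 1198 bp. The median fold was 2.37 for the 6 peaks over Or genes and 2.47 for the 9 over Ir genes. In all, 6 of the 16 genes were covered over 100% of their span, 13 over at least 50%, and 2 under 20%. At least 50% was covered in 5 Or and 8 Ir genes, against 4.04% of all protein-coding genes. Strong peaks, here those whose −log10 q-value was 10 or more, overlapped 1 Or and 5 Ir genes, against 3.43% of all protein-coding genes. Peaks no lower than the list's median fold overlapped 3 Or and 6 Ir genes, against 5.21%.

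**Figure D2:**
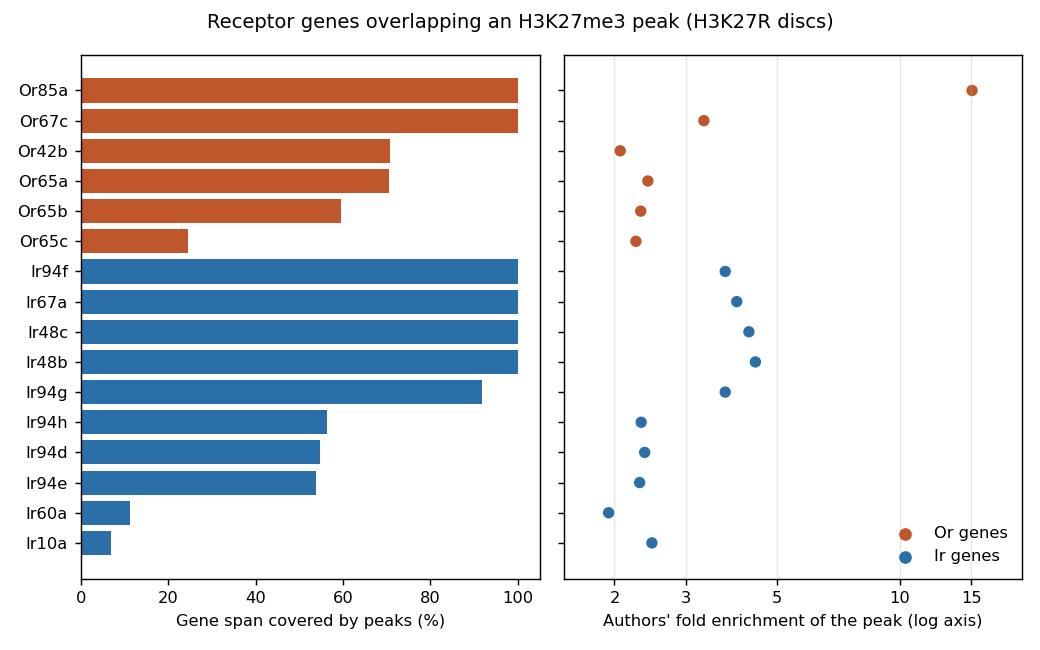
Left, share of the gene span covered by H3K27me3 peaks (x axis, percent) for each of the 16 receptor genes with a peak; right, the authors' fold enrichment of the peak that covers most of the gene (log axis). Or85a stands apart at 15.1-fold, and the other 15 genes lie between 1.93 and 4.43.

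Or85a lay inside a strong block shared with a developmental regulator. Or85a, an odorant receptor of an antennal basiconic sensillum (Dmel_CG7454; 3R 8321747 to 8323054, 1308 bp), was covered over 100% by a peak of 15.1-fold enrichment, the 14th highest of the 1709. That peak ran 23425 bp, from 3R 8316419 to 8339843. The span of Or85a lies within that of Poxm, a paired-domain transcription factor gene (3R 8319025 to 8333792), which was itself covered over 100%. The peak also held the small gene CG7443 and Ctr1B, a copper transporter gene, and reached Coq2, a ubiquinone synthesis gene. No other Or gene met a peak above 3.31-fold.

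Or67c and the Or65 genes carried peaks of their own, with no regulator gene under them. Or67c, an antennal odorant receptor (3L 10243320 to 10244706), was covered over 100% by a 6930 bp peak of 3.31-fold that held no other protein-coding gene. Or65a, Or65b and Or65c sit side by side within 8.46 kb (3L 6320611 to 6329069), and all 3 met a separate peak. Or65a, which has been linked to the male pheromone cis-vaccenyl acetate, was covered over 70.6% by a peak of 2.41-fold that extended past 1 end of the gene and was 3627 bp wide. Or65b was covered over 59.6% by an 857 bp peak of 2.32-fold that lay wholly inside its span. Or65c was covered over 24.6% by a 394 bp peak of 2.26-fold that reached its right end. Joined across gaps of up to 5000 bp, the 3 peaks made an 11.1 kb domain, and the Or65 genes were the only protein-coding genes in it.

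Or42b was the one gene of the larval set with a peak. Or42b, which detects fruit esters and drives attraction to food odours (2R 5797195 to 5798512), was covered over 70.7% by a 1488 bp peak of 2.07-fold, which ranked 1441st of the 1709 by fold. Its neighbour Or42a (2R 5791441 to 5792967), another receptor for food esters, had no peak and lay 4614 bp from that of Or42b.

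Of the 10 Ir genes with a peak, 7 lay in a pair of regions, the FGF ligand locus and the CG4374 locus. Ir48b (2R 11700647 to 11702449) and Ir48c (2R 11787808 to 11789493), divergent Ir genes, were each covered over 100%. Ir48b lay in a 21388 bp peak of 4.43-fold that also reached pyr, and Ir48c in a 39796 bp peak of 4.27-fold that also held CG13193 and CG42493 and covered part of ths. The genes pyr and ths encode ligands of the FGF receptor Heartless, and the span of Ir48c lies within that of ths. Both peaks belonged to 1 domain of 129.9 kb. The pseudogene Ir48a, no member of the set, lay in the same peak as Ir48b and was covered over 100%, and it was the only one of the families' 7 pseudogenes with a peak.

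Ir94d to Ir94h, which lie on both sides of CG4374, all met peaks, with the strongest enrichment on 1 side. Ir94d (3R 23402808 to 23405139) was covered over 54.7% by a peak of 2.37-fold. Ir94e (3R 23405509 to 23407402), a taste receptor gene of the labellum, was covered over 53.9% by a peak of 2.31-fold. These peaks of 1625 and 1409 bp were separate, and each held 1 Ir gene only. On the far side of CG4374, Ir94f (3R 23481865 to 23483541) was covered over 100% and Ir94g (3R 23483863 to 23485500) over 91.8% by the same peak, 12183 bp wide and 3.74-fold. Ir94h (3R 23487501 to 23489180) was covered over 56.3% by a 946 bp peak of 2.32-fold inside its span. CG4374, 63.6 kb long, was covered over 25.8% by a series of small peaks. Within 15 kb of these 5 Ir genes and in between lay 24 peaks of 1.92- to 3.74-fold. The highest, over Ir94f and Ir94g, had a −log10 q-value of 11.7 and so counts among the strong peaks.

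The other 3 Ir94 genes had no peak. Ir94a, Ir94b and Ir94c form a separate cluster (3R 22113427 to 22119454) and lay 14.1, 12.1 and 9.88 kb from the nearest peak. The Ir94 genes thus divided by location, 5 of 5 with a peak around CG4374 and 0 of 3 in the other cluster.

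**Figure D3:**
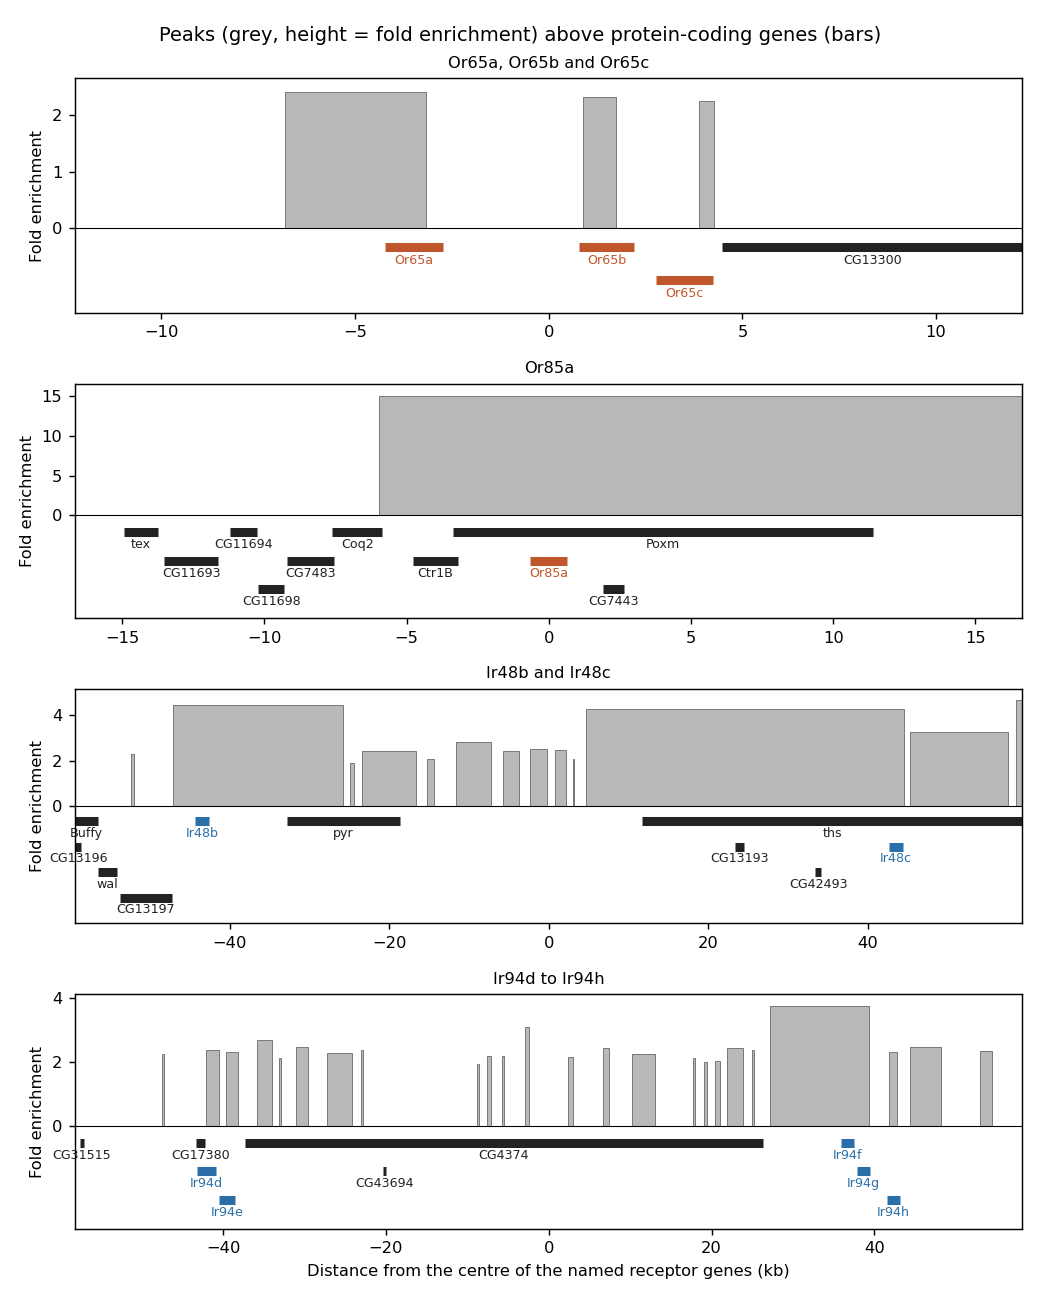
Peaks (grey boxes; height is the authors' fold enrichment, y axis) above protein-coding genes (bars; Or orange, Ir blue, others black) at 4 loci; the x axis is the distance in kb from the centre of the named receptor genes, and boxes at the edge of a panel are clipped there. Or85a lies within Poxm under 1 block of 15.1-fold, whereas the Or65 genes meet 3 separate peaks of 2.26- to 2.41-fold.

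The 3 remaining Ir genes were single genes. Ir67a (3L 9542245 to 9543999) was covered over 100% by a 3164 bp peak of 3.99-fold that held no other protein-coding gene. Its neighbour in the order of protein-coding genes, Or67a, had no peak and lay 10.1 kb from that of Ir67a. Ir60a (2R 24249055 to 24251303), which overlaps the gene nord, was covered over 11.4% by a 256 bp peak of 1.93-fold. Ir10a (X 11308533 to 11311208) was covered over 6.95% by a 186 bp peak of 2.47-fold. In these last 2 genes the peak lay inside the span and touched neither end.

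In most pairs of neighbouring receptor genes, neither gene had a peak. With members no more than 10 kb apart joined, 47 genes formed 17 clusters and 73 stood alone. Every member met a peak in 3 clusters (Or65a to Or65c, Ir94d with Ir94e, and Ir94f to Ir94h), 1 of 2 did in the Or42a and Or42b pair, and none did in 13. Of the 30 pairs of neighbours within clusters, 5 had a peak on both genes, 1 on a single gene and 24 on neither. The same count was not made for neighbouring pairs of all protein-coding genes. Since 104 of the 120 members had no peak, many pairs with neither are to be found however the genes are arranged. Both clusters of 4 or more genes were without peaks. Ir7b, Ir7c, Ir7d, Ir7e, Ir7f and Ir7g (X 7864948 to 7886976), which include the salt taste receptor Ir7c, lay 190.3 to 210.0 kb from a peak. Ir52a, Ir52b, Ir52c and Ir52d (2R 15499632 to 15508366), of which some are expressed in taste bristles of the legs, lay 79.1 to 86.1 kb from one. Clustered genes had a peak in 9 of 47 cases (19.1%, 9.15 to 33.3%) and single genes in 7 of 73 (9.59%, 3.94 to 18.8%). For Or genes these counts were 4 of 18 against 2 of 42, and for Ir genes 5 of 29 against 5 of 31.

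By chromosome arm, counts were small and differences were not tested. On 3L, 4 of 11 Or genes and 1 of 13 Ir genes had a peak, beside 7.05% of all protein-coding genes there. On 3R, 1 of 16 Or and 5 of 14 Ir genes did, beside 7.83%. The Or65 genes made up 3 of the 4 on 3L, and Ir94d to Ir94h all 5 on 3R. On 2R the counts were 1 of 15 and 3 of 18, beside 7.09%, and on X 0 of 8 and 1 of 11, beside 5.10%. On 2L they were 0 of 10 Or and 0 of 4 Ir genes, which allows up to 30.8% and 60.2%, beside 8.39% of all protein-coding genes there. Chromosome 4 held no member.

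The median distance to the nearest peak, with overlap counted as 0, was 75.8 kb for Or genes (95% interval of the median 38.8 to 101.7 kb), 76.3 kb for Ir genes (39.5 to 113.4 kb) and 67.1 kb for all protein-coding genes. Without members that overlap another protein-coding gene, the median was 41.2 kb for 44 Or genes and 81.5 kb for 47 Ir genes. The middle 50% of Or genes ran from 20.6 to 132.8 kb, and that of Ir genes from 9.68 to 176.3 kb. Within 10 kb of a peak or overlapping it were 10 Or genes (16.7%), 16 Ir genes (26.7%) and 17.3% of all protein-coding genes. Within 50 kb the shares were 43.3%, 40.0% and 42.3%. Beyond 100 kb lay 22 Or genes (36.7%), 23 Ir genes (38.3%) and 38.1% of all protein-coding genes. Within 10 kb the Ir family thus had 16 genes against 10 of the Or family, of which 10 and 6 overlapped a peak. Beyond 100 kb the numbers were similar. These differences were not tested.

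**Figure D4:**
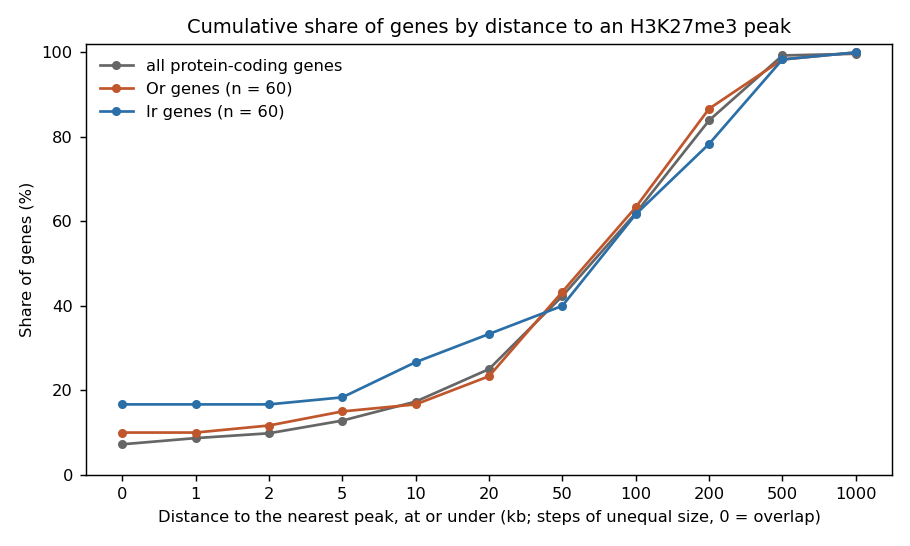
Cumulative share of genes (y axis, percent) at or under a given distance to the nearest H3K27me3 peak (x axis, kb, in steps of unequal size; 0 means overlap), for 60 Or genes, 60 Ir genes and all protein-coding genes. The Ir line starts highest, at 16.7% against 10% for Or and 7.22% for all genes. At 50 kb the shares are 40.0% (Ir), 43.3% (Or) and 42.3% (all genes), and at 200 kb they are 78.3%, 86.7% and 83.9%.

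Of the 5 Or genes nearest to a peak without meeting one, 4 lay by peaks of 1.86- to 2.37-fold. Or82a, a receptor for the floral ester geranyl acetate (3R 4256972 to 4258444), lay 1637 bp from a 337 bp peak of 1.86-fold. Or19a, a receptor for citrus terpenes that guides egg laying (X 20141819 to 20143188), lay 3668 bp from a peak of 2.24-fold. Or19b, a close copy of Or19a, was 41.6 kb from a peak, and how reads common to such copies were placed is not stated in the labels. Next were Or42a and the pheromone receptor Or67d, 7639 bp from a 251 bp peak of 2.37-fold over can. Or67a followed, by the 3164 bp, 3.99-fold peak of Ir67a. At the other end, the co-receptor Orco (3R 5407183 to 5412406) lay 501.5 kb from the nearest peak, its neighbour Or83a 491.9 kb and Or63a 417.9 kb.

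Among Ir genes the nearest without a peak were Ir60e at 4647 bp, Ir67c at 6657 bp, Ir87a at 7083 bp, Ir67b at 8779 bp and Ir21a at 9087 bp. The peaks by Ir60e, Ir67c, Ir87a and Ir67b had fold enrichments of 1.98 to 3.01, whereas the one by Ir21a stood at 10.9. The farthest were Ir41a, an antennal receptor for polyamines, at 689.3 kb, Ir76b at 422.6 kb and Ir20a at 405.5 kb. Of the other co-receptors, Ir25a lay 218.0 kb away and Ir8a, which serves acid-sensing Irs, 46.9 kb. Of antennal Ir genes with roles in humidity sensing, Ir68a lay at 84.0 kb, Ir40a at 155.6 kb and Ir93a, which also serves cool sensing, at 171.6 kb. The median of the 14 antennal Ir genes was 78.7 kb.

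A single receptor gene, Ir21a, was among those the authors list as upregulated with H3K27M. Ir21a (Dmel_CG2657; 2L 21823 to 25155, 3333 bp) encodes a subunit of the cool-sensing receptor that acts with Ir25a and Ir93a. Its span matched a listed interval to the base, and it was the only match among the 120 genes: 1 of 60 Ir genes (1.67%, 0.04 to 8.94%) and 0 of 60 Or genes, which allows up to 5.96%. The list held 0.941% of all protein-coding genes (131 of 13922), so the count for either family was near the background. Ir21a had no peak in control discs. It lay near the left tip of 2L, 9087 bp from a peak of 8171 bp and 10.9-fold (2L 4566 to 12736) that overlapped l(2)gl, a cell polarity gene and tumour suppressor. Its partner genes were not listed. The list gives no fold change for Ir21a, so the size and error of its increase are unknown.

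None of the 16 receptor genes with an H3K27me3 peak was listed as upregulated. At the background share of 0.941%, a list of 16 genes is too short to show a lower share. A further receptor gene, Ir56a (2R 19094267 to 19096174), lies within the span of a listed gene, the serotonin receptor gene 5-HT1A (2R 19067155 to 19121958). Neither Ir56a nor 5-HT1A had a peak, and the listed interval is that of 5-HT1A and not of Ir56a. Or9a lay 3.29 kb and Ir87a 4.99 kb from a listed gene. The median distance to a listed gene was 596.5 kb for Or genes, 388.3 kb for Ir genes and 360.2 kb for unlisted protein-coding genes.

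Among other genes of chemosensation, the share with a peak ran from 0% for 4 SNMP and ammonium transporter genes to 70.0% for regulators of receptor choice. Differences between these lists and the receptor families were not tested. Peaks overlapped 2 of 60 gustatory receptor genes (3.33%, 0.41 to 11.5%), Gr59d over 14.5% and Gr63a, a subunit of the carbon dioxide receptor, over 34.7%. They overlapped 4 of 52 odorant binding protein genes (7.69%, 2.14 to 18.5%). Of these, Obp99c and Obp99d met a peak of 10.9-fold and were covered over 100%, as was Obp99b by a peak of 1.98-fold. Among 13 ionotropic glutamate receptor genes, the relatives of the Ir family, Nmdar2 alone had a peak, over 0.96% of its span. Of 20 transcription factor genes of olfactory neuron development and receptor choice, 14 overlapped a peak (70.0%, 45.7 to 88.1%). Among them, nub, dac, en, ato, danr and dan were covered over 100%, and nub is also among the wing disc identity genes above. The gene acj6, a POU factor that selects receptors in the antenna and palp, was covered over 3.35%. Another POU factor gene, pdm3, was covered over 7.25%. At least 50% of the span was covered in 9 of the 20 genes. Their median span was 19238 bp, against 2163 bp for all protein-coding genes, and gene length was not matched here. The 4 genes of SNMP and ammonium transporter proteins had no peak, which allows up to 60.2%. The upregulated list held 2 of 60 gustatory receptor genes (3.33%, 0.41 to 11.5%) and none of the other 4 lists, counts too small to tell from the 0.941% of all protein-coding genes.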

How the data were processed

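The data are a pair of deposited lists. Broad peaks of H3K27R discs came as 1 list that the labels attach to both control H3K27me3 libraries. Per the file layout, the authors deposited for each peak a score (not used), a fold enrichment and a −log10 q-value. The submitters' processing notes name Bowtie2, MACS2 and dm6. Their versions, the peak threshold, the control library and how replicates were joined are not stated in the labels. The lowest deposited fold was 1.73. A wide or merged call moves the share of a gene that counts as covered. The second list holds the authors' intervals upregulated with H3K27M, with no values; the labels do not state the RNA data or the calling rule behind it.

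All 148 intervals equalled the span of exactly 1 gene in the RefSeq Release 6 table. Coordinates are 1-based. Overlap was at least 1 bp of the gene span; distance is the difference of the nearest positions, 0 for overlap. The table has no strand, so start sites were not used. Computation used Python 3.11.15, pandas 2.3.3, numpy 2.4.6 and scipy 1.17.1, and the overlap code was tested on simulated peaks. Depth is unknown. Shares have exact intervals; no chance test was made.

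Named are all members with a peak or on the list, the 5 nearest and 3 farthest others per family, the co-receptors and clusters of 4 or more. Ir94a to Ir94c, Ir68a, Ir40a, Ir93a, Ir25a, Or19b, Ir56a and Or9a, and examples from other lists, were chosen after their values were seen. Members and lists were chosen with earlier results of these data known. Alternatives changed the peak threshold, the overlap rule, the span and the counting of neighbours.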

Additional observations from a re-analysis of the deposited data

How the results depend on the processing

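No paired analysis was possible because both lists lack values for single libraries, and leaving out a replicate was impossible too. The promoter alternative was not run for want of strands. Of the 12 alternatives for the overlap with peaks, 2 moved the counts by more than 1.5 times: peaks with −log10 q of at least 10 left 1 Or and 5 Ir genes, and peaks no lower than the median fold left 3 Or and 6 Ir genes, against 3.43% and 5.21% of all protein-coding genes. Both alternatives drop weak peaks by construction. The other alternatives gave 4 to 9 Or and 7 to 11 Ir genes. The share of all protein-coding genes, where computed, ran from 4.04% to 12.8% in these settings. Spans extended by 5 kb gave 9 Or (15.0%) and 11 Ir genes (18.3%), against 12.8% of all protein-coding genes. With members within 10 kb counted once the counts were 4 of 50 and 7 of 40, for which no matching share was computed. Ends of spans in a peak and the counting of pseudogenes were added after seeing the data. With peaks of −log10 q of at least 10, the median distance rose from 75.8 to 209.4 kb (Or) and from 76.3 to 229.7 kb (Ir). For all protein-coding genes it rose from 67.1 to 199.6 kb. With peaks no lower than the median fold it was 118.6 kb for Or genes, 82.7 kb for Ir genes and 101.7 kb for all protein-coding genes. Without members overlapping another gene, the median distance fell to 41.2 kb for Or genes. The cause was not tested. On the upregulated list, any overlap gave 2 Ir genes in place of 1, and a distance of up to 5 kb gave 1 Or and 3 Ir genes. The shares of all protein-coding genes under these looser rules were not computed, so these counts cannot be set against a background. Unknown depth limits every weak peak.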
